A study of Mus musculus with 9 samples.

Results

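Mesenchymal cells of mouse truncal skin were compared with those of thymus and of bone, gene by gene. The comparison set 3 skin libraries against the mean of 3 thymus and 3 bone libraries, 9 libraries in all, and kept genes that went the same way against each tissue. Of 23420 genes counted, 15635 passed a filter on low counts and were tested, and 11384 of these lay on the same side of skin against thymus and against bone. Genes of the dermis are described apart from genes of the hair follicle, because most of the latter were highest in 1 skin library, skin 3.

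All groups were untreated C57BL/6 mice aged 3 to 4 weeks, and every library came from at least 25000 cells sorted as lineage-negative and SCA1-positive. SCA1, encoded by Ly6a, is a surface protein common on fibroblast progenitors. The lineage cocktail removed blood cells, epithelium (EpCAM) and endothelium (CD31). Skin was dermis of the abdomen and back, and bone was femur, tibia and pelvis. Thymus and bone were digested with Liberase TM and DNase I, bone was also crushed, and how skin was dissociated is not given in these sources. No label says how many animals stand behind a library, and 1 thymus library is titled 1-3. The p-values therefore measure only how far these libraries vary, and that variation may be technical.

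The dermis is built by fibroblasts that secrete fibrillar collagen, elastic fibres and proteoglycans. Its layers differ: papillary fibroblasts lie under the epidermis, reticular fibroblasts lie deeper, and fascia beneath them holds CD34-rich progenitors. Fibroblasts keep a transcription factor code of body position, the Hox genes among it. The hair follicle is an epithelial organ in the dermis. Its inner root sheath and hair shaft make their own keratins, and a mesenchymal condensate, the dermal papilla, directs its growth.

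Values are library-scaled read counts (CPM) adjusted by TMM, edgeR's normalisation, in the order skin 1, 2 and 3, thymus 2, 3 and 1-3, and bone 1, 2 and 3. Differences are log2 values of skin minus the mean of thymus and bone from edgeR's quasi-likelihood test, with an approximate SE. A gene is called higher or lower where the Benjamini-Hochberg adjusted p over all tested genes is under 0.05 and skin lies on the same side of each tissue. By this rule 3348 genes (21.4%) were higher in skin and 3269 (20.9%) were lower. A stricter rule asks for at least 2-fold against each tissue with all 3 contrasts past the threshold, which 782 genes (5%) met as higher and 1180 (7.55%) as lower. The 2 pairwise contrasts share the skin libraries, so their concordance is no independent evidence. The averaged contrast alone called 22.9% of genes higher and 22.3% lower, and 453 of those genes did not lie on the same side of each tissue. Against thymus 18.3% were higher and 19.3% lower, and against bone 23.4% and 23.7%.

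Gene reads per library ran from 97414733 to 116759235 in skin, from 92394043 to 104101456 in thymus and from 78757872 to 95113387 in bone. Col1a1, Col1a2 and Col3a1 alone took 23.5% to 24.9% of skin gene reads, against 4.17% to 4.86% in thymus and 6.41% to 7.03% in bone. The TMM factors were 0.70 to 0.77 in skin, 1.10 to 1.18 in thymus and 1.16 to 1.23 in bone. Scaling by library size alone moved the median difference over all genes from -0.02 to -0.68 on the log2 scale and gave 1155 genes higher and 7553 lower. The share of calls that were higher was then 13.3%, against 50.6% with TMM. Most lists below are therefore given with both counts. The share of reads outside genes also differed, at 4.58% to 5.48% in skin, 9.08% to 10.0% in thymus and 12.4% to 14.01% in bone, and its part in the results was not tested.

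Genes of the sort antibodies were measured in every group. Ly6a was at 669, 794 and 1381 CPM in skin, 377, 427 and 476 in thymus and 327, 240.1 and 273 in bone. It was highest in every skin library, with a difference of 1.45 ± 0.20 (SE, edgeR adjusted p = 0.000124), but without skin 3 it no longer met the 2-fold rule. Pdgfra, a receptor carried by most fibroblasts, was at 764, 695 and 869 CPM in skin, 1202, 1149 and 1129 in thymus and 805, 698 and 707 in bone, and was not called. Ptprc, which encodes the pan-leukocyte antigen CD45, was at 2.27, 0.484 and 1.13 CPM in skin, 7.26, 38.6 and 14.1 in thymus and 74.4, 73.6 and 81.3 in bone. Epcam was at 2.51, 2.12 and 5.29 CPM in skin, 1.67, 1.25 and 0.843 in thymus and 0, 0.111 and 0.369 in bone. Ptprc was thus lowest in skin and Epcam highest there, and Epcam was not called without skin 3. Pecam1, which encodes CD31, was at 4.14, 6.08 and 7.77 CPM in skin, 8.01, 13.4 and 10.9 in thymus and 12.9, 13.4 and 15.3 in bone, and was called lower. Leukocyte genes remained in the sorted cells: neutrophil genes summed to 2677 to 3735 CPM in bone. Macrophage and myeloid genes summed to 543 to 649 CPM in bone, 49.8 to 166 in thymus and 110, 70.6 and 184 in skin, so skin and thymus overlapped.

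Of 12 endothelial genes, all tested, 2 were higher and 3 lower in skin, near the 21.4% and 20.9% of all tested genes. With library size alone the counts were 2 and 7. The 12 genes summed to 258, 293 and 355 CPM in skin, 74.3 to 113 in thymus and 75.2 to 93.6 in bone. Most of the skin sum was Tek, an angiopoietin receptor, at 204, 224 and 280.0 CPM in skin, 28.3, 52.4 and 52.4 in thymus and 39.6, 28.9 and 26.3 in bone. Kdr, a VEGF receptor, was the other higher gene, while Cdh5, which defines endothelium, was at 5.27, 7.88 and 5.21 CPM in skin and was not called. The part of residual leukocyte, epithelial or endothelial RNA in the results was not tested.

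Collagen dominated the skin transcriptome. By the authors' deposited RPKM, which divides by gene length and so allows genes to be compared, the highest genes in skin were Col3a1, Col1a1, Sparc and Col1a2, with means over the 3 libraries of 18029, 13909, 11384 and 10108. The first, second and last encode chains of the fibrils of dermis, and Sparc encodes a collagen-binding matrix protein. Col3a1 (mm10 chr1:45311538-45349706) was at 148267, 162606 and 152075 CPM in skin, 22451, 25155 and 22519 in thymus and 29235, 27375 and 27446 in bone. Its difference was 2.59 ± 0.12 (edgeR adjusted p = 4.53e-08). Col1a1 was at 93927, 106285 and 91525 CPM in skin, 6384, 6756 and 7749 in thymus and 12234, 14208 and 13029 in bone, a difference of 3.34 ± 0.13 (edgeR adjusted p = 1.96e-08). Col1a2 differed by 2.84 ± 0.13 and Sparc by 2.07 ± 0.12. For each of these 4 genes every skin library was above all 6 others, as it was for 16.8% of all tested genes.

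Of the 12 genes with the highest RPKM in skin, 9 were called higher. The other 3 were Dcn, Gsn and Fn1. Dcn, the small proteoglycan decorin, was at 6311, 8166 and 9002 CPM in skin, 8534, 8405 and 11381 in thymus and 5867, 5599 and 6511 in bone, so the groups overlapped. Gsn, an actin-severing protein with a secreted form, also overlapped thymus. Fn1, fibronectin, was at 21233, 23979 and 16098 CPM in skin, 1615, 2601 and 3018 in thymus and 39044, 31770 and 40038 in bone, which placed skin between the other tissues. The remaining genes of the 12 were Gpx3, Serpinf1, Serpinh1, Fstl1 and Pcolce. Gpx3, a secreted antioxidant enzyme, was at 3612, 4957 and 7313 CPM in skin, 192, 271 and 349 in thymus and 1091, 954 and 1103 in bone.

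Of 11 fibrillar collagen genes, all tested, 6 were higher and 2 lower in skin, beside 21.4% and 20.9% of all tested genes, and with library size alone 6 and 3. The median difference of the list was 1.06, beside -0.02 over all genes. Besides the 3 above these were Col5a1, Col5a2 and Col5a3, whose type V chains take part in fibril assembly. The lower ones were Col24a1 and Col27a1. Col5a1 was at 14837, 15833 and 10793 CPM in skin, 2732, 2764 and 3253 in thymus and 3049, 3279 and 3194 in bone. Of 19 fibril-associated, beaded and basement membrane collagen genes, all tested, 4 were higher and 7 lower, and with library size alone 2 and 10. Their median difference was -0.91. Col14a1, a fibril-associated collagen, differed by 2.09 ± 0.17. The basement membrane gene Col4a1 went the other way, at 791, 1527 and 1342 CPM in skin and 4565, 3899 and 3686 in thymus, while Col15a1, at 7027, 5638 and 7858 CPM in thymus, did not separate skin from bone.

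Genes for collagen processing were mostly higher. Of 26 genes for collagen modification and secretion, all tested, 21 were higher and 4 lower in skin, and with library size alone 16 and 4. The median difference was 1.23, and 12 met the 2-fold rule. Without skin 3 the counts of 21 and 12 did not move. P4ha2, a prolyl hydroxylase subunit, was at 481, 491 and 298 CPM in skin, 77.0, 77.4 and 74.4 in thymus and 64.1, 78.5 and 72.7 in bone, a difference of 2.52 ± 0.15 (edgeR adjusted p = 2.5e-07). Serpinh1, the collagen chaperone HSP47, was at 7557, 7646 and 4947 CPM in skin, 2648, 2676 and 2699 in thymus and 963, 1137 and 940.0 in bone.

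Loxl1, a cross-linking lysyl oxidase, was at 1845, 2252 and 2054 CPM in skin, 322, 469 and 539 in thymus and 495, 540.4 and 429 in bone. Loxl2 differed by 1.54 ± 0.13, Loxl4 by 1.89 ± 0.17 and Lox by 1.40 ± 0.22. The procollagen peptidase genes Bmp1 and Adamts2 differed by 1.33 ± 0.13 and 1.54 ± 0.12, and Pcolce, which speeds C-propeptide removal, by 1.70 ± 0.15. The 4 lower genes included Leprel1, a prolyl 3-hydroxylase, at 0.652, 1.07 and 1.07 CPM in skin, 13.7, 13.1 and 11.5 in thymus and 7.79, 12.9 and 10.0 in bone. The paralogous Lepre1 was at 486, 478 and 282 CPM in skin, 139.9, 145 and 156 in thymus and 95.2, 107 and 116 in bone. Members of 1 enzyme family thus lay on opposite sides of skin. Plod2, a lysyl hydroxylase, was at 119, 85.9 and 109 CPM in skin and was highest in bone, at 211, 243 and 314.

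Of 19 elastic fibre genes, all tested, 12 were higher and 2 lower, against 12 and 5 with library size alone, with a median difference of 1.36. Eln, which encodes elastin, was at 5245, 7722 and 5995 CPM in skin, 1359, 1961 and 2785 in thymus and 436, 503 and 348 in bone. The difference was 2.76 ± 0.21 (edgeR adjusted p = 1.64e-06), and thymus lay between skin and bone. Efemp1, an extracellular glycoprotein of the fibulin family, showed the same order, at 1470, 1499 and 1643 CPM in skin, 341, 424 and 578 in thymus and 73.2, 68.5 and 52.5 in bone. Mfap4 differed by 2.98 ± 0.31, Emilin2 by 2.29 ± 0.16 and the microfibril gene Fbn1 by 1.36 ± 0.14. Ltbp4, which tethers latent TGF-beta, was lower in skin, at 296, 653 and 425 CPM against 2329, 1809 and 2112 in thymus and 1091, 886 and 867 in bone. Of 13 small leucine-rich proteoglycan genes, all tested, 3 were higher and 4 lower, beside 21.4% and 20.9% of all tested genes. With library size alone the counts were 1 and 6. The median difference of the proteoglycan list was -0.12.

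**Figure D1:**
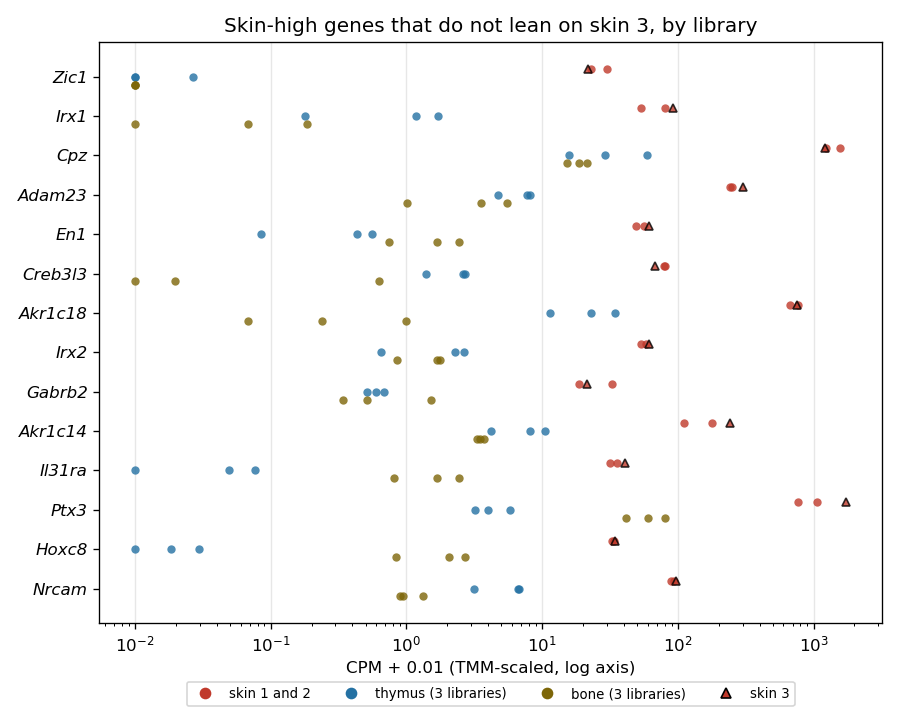
CPM + 0.01 on a log axis of the 14 genes furthest above both tissues that did not lean on skin 3, 1 point per library, coloured by tissue, with skin 3 as a triangle. For Zic1, En1 and Irx1 the skin points lie between 21.9 and 91.7 CPM, and no thymus or bone point is above 2.45 CPM.

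Genes that mark the dermal fibroblast lineage were split between called and uncalled members. Of 12, all tested, 6 were higher and none lower with TMM, and with library size alone 5 were higher and 4 lower. The median difference was 1.08. Twist2, a dermal basic helix-loop-helix factor, was at 51.4, 65.2 and 54.0 CPM in skin, 5.45, 6.45 and 5.95 in thymus and 6.39, 6.47 and 5.75 in bone. The difference was 3.23 ± 0.13 (edgeR adjusted p = 1.96e-08), and the other tissues barely differed from each other. Twist1 was at 165, 147 and 154 CPM in skin against 34.8 to 63.2 in the other libraries. En1, a homeobox gene active in dermis of the trunk, was at 49.2, 55.8 and 61.2 CPM in skin, 0.545, 0.0753 and 0.421 in thymus and 2.45, 0.733 and 1.67 in bone.

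Dpt, dermatopontin, and Prrx1, a limb and skin mesenchyme factor, differed by 1.41 ± 0.14 and 0.80 ± 0.11. Prrx1 lost its call with library size alone. Lum, Dcn, Pdgfra, Msx1 and Fbln1 were not called, and the first 4 of these were called lower with library size alone. Tbx15, a T-box factor of the dermis, did not separate skin from bone: it was at 129, 125 and 162 CPM in skin, 4.25, 3.92 and 4.97 in thymus and 144, 135 and 153 in bone. Lum, lumican, was at 1493, 1521 and 1787 CPM in skin, 2076, 1963 and 1345 in thymus and 1651, 1815 and 1601 in bone. The tissues overlapped for Lum, and skin and bone for Tbx15.

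The fascia and adventitial progenitor list was the most one-sided of the dermal lists by count. Of 12 genes, all tested, 11 were higher and none lower, and with library size alone 7 and none. Its median difference was 1.68, and 11 genes were called higher without skin 3. Pi16, a marker of adventitial fibroblasts, was at 3342, 4556 and 4914 CPM in skin, 761, 1628 and 1639 in thymus and 297, 227 and 285 in bone, a difference of 2.83 ± 0.23 (edgeR adjusted p = 2.7e-06). Dpp4, the peptidase CD26, was at 779.8, 747 and 839.7 CPM in skin, 87.9, 208 and 177 in thymus and 65.4, 59.9 and 39.6 in bone. Wnt2 was at 113, 149.5 and 159 CPM in skin, 6.57, 11.2 and 11.8 in thymus and 7.87, 5.45 and 4.25 in bone. These 3 genes separated every skin library from every other library.

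Clec3b, tetranectin, differed by 2.41 ± 0.18, Efhd1 by 1.98 ± 0.24 and Anxa3 by 1.79 ± 0.17. Cd34 was at 3219, 3335 and 3198 CPM in skin, 2069, 2127 and 2251 in thymus and 599, 577 and 526 in bone, and lost its call with library size alone. Cd55, the gene of the list that was not called, was at 217, 188 and 243 CPM in skin and 298, 225 and 257 in bone.

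Of 10 reticular and hypodermal genes, all tested, 7 were higher and 2 lower, and with library size alone 6 and 2, with a median difference of 1.86. Sfrp2, a secreted Wnt modulator, was at 1616, 1915 and 2077 CPM in skin, 61.6, 148 and 171 in thymus and 68.6, 77.3 and 24.0 in bone, a difference of 4.46 ± 0.39 (edgeR adjusted p = 1.34e-05). Ly6c1 was at 527, 599 and 1099 CPM in skin, 67.2, 92.8 and 215 in thymus and 196, 141 and 187 in bone. Dlk1, a preadipocyte protein, was at 53.1, 93.8 and 17.3 CPM in skin against at most 9.34 in any other library, and here skin 3 was the lowest skin library. Mgp, the calcification inhibitor matrix Gla protein, was at 40.8, 88.7 and 83.7 CPM in skin, 1835, 1817 and 1288 in thymus and 856, 1020 and 812 in bone. It is a marker of deep dermis in the list, yet it was lower in every skin library (-4.10 ± 0.28, edgeR adjusted p = 1.08e-06).

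Papillary genes were mixed. Of 13 listed, 12 were tested, 4 were higher, Dpp4 among them, and 3 lower, beside 21.4% and 20.9% of all tested genes. With library size alone the counts were 2 and 3. Apcdd1, a Wnt inhibitor, was at 139, 129 and 146 CPM in skin, 40.1, 36.5 and 59.9 in thymus and 6.22, 11.3 and 8.61 in bone. Axin2, a Wnt target, was at 4.61, 5.95 and 7.58 CPM in skin, 38.8, 45.9 and 55.3 in thymus and 8.38, 10.5 and 13.9 in bone, and was lower. Col6a5 was at 9.12, 12.1 and 9.58 CPM in skin and 1484, 1235 and 1188 in thymus. Col13a1 was also lower, at no more than 0.496 CPM in any skin library.

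The dermal papilla list, 21 of 22 genes tested, had 5 higher and 6 lower with TMM, and 3 and 7 with library size alone, around a median difference of -0.02. These shares are near those of all tested genes. Fgf7, a growth factor for epithelium, was higher, at 55.7, 52.2 and 56.8 CPM in skin, 10.2, 12.5 and 17.6 in thymus and 29.0, 21.6 and 30.3 in bone. Corin, a protease made by the papilla, had most of its reads in skin 3: it was at 0.652, 2.81 and 43.3 CPM in skin, 0 in every thymus library and 0.116, 0 and 0 in bone. It was called without skin 3 but no longer met the 2-fold rule. Corin passed the filter through skin, so its call is no support of its own. The papilla factor Sox2 had 48 reads over the 3 skin libraries and 0 in the others, and was not tested. Enpp2, autotaxin, was lower, at 22.5, 30.8 and 38.0 CPM in skin, 4403, 3729 and 3011 in thymus and 334, 294 and 331 in bone. Trps1, a GATA-type repressor needed for hair and bone growth, was at 1.42, 0.674 and 3.10 CPM in skin, 87.5, 73.2 and 81.4 in thymus and 189, 173 and 234 in bone. In these bulk libraries, fewer cells of a type and less RNA per cell cannot be told apart.

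**Figure D2:**
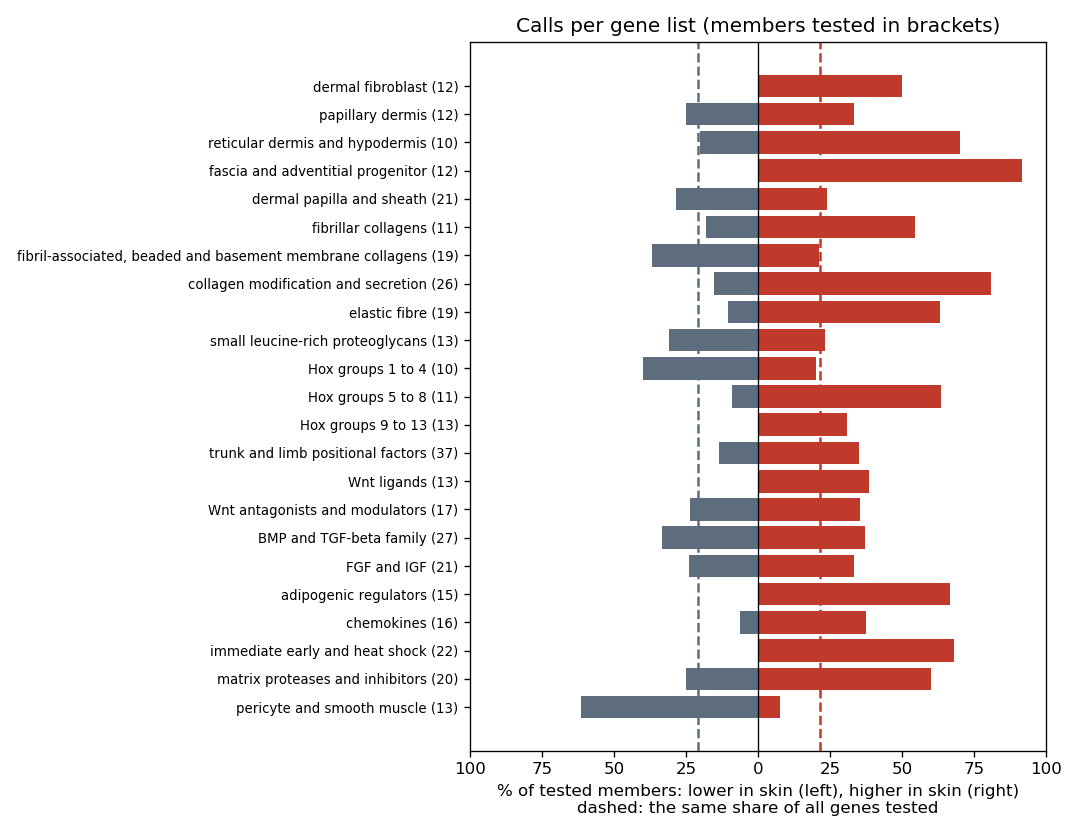
Percent of tested members of 23 gene lists (matrix, dermal, positional, signalling, stress and mural, without the follicle and blood cell lists) called higher in skin (red, to the right) or lower in skin (grey, to the left), with the tested number in brackets and dashed lines at the shares of all tested genes (21.4% and 20.9%). Of the lists drawn, the fascia bar, 11 of 12, reaches furthest to the right and the pericyte bar, 8 of 13, furthest to the left.

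Several genes of body position had almost no reads outside skin. Of 39 trunk and limb factors outside the Hox clusters, 37 were tested, 13 were higher and 5 lower, and with library size alone 13 and 8. The median difference was 0.80. Zic1 (mm10 chr9:91360345-91365799), a zinc finger factor of dorsal trunk mesoderm and neural tube, was at 29.9, 23.0 and 21.9 CPM in skin, with 6129 reads there against 2 in thymus and 0 in bone. The ratio to thymus was 4281 with a 95% counting interval of 1185 to 35359. Against bone it was at least 2618-fold higher, taking 3 reads over the group as the floor. The neighbouring family gene Zic4 had 432 skin reads against 2 from thymus and 0 from bone, and Sim1 had 584 against 0 and 0. Zic1, Zic4 and Sim1 passed the filter through skin, so their calls are no support of their own.

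Irx1 (mm10 chr13:71958232-71963723), a homeobox gene of the Iroquois family, was at 53.2, 81.0 and 91.7 CPM in skin, 0.168, 1.16 and 1.71 in thymus and 0.0582, 0 and 0.174 in bone. Irx2, on the same chromosome at chr13:72628978-72634194, was at 53.9, 57.8 and 61.3 CPM in skin, 0.638, 2.66 and 2.27 in thymus and 1.75, 1.66 and 0.846 in bone. Irx5 was higher too, at 19.2, 18.04 and 16.9 CPM, and so was Irx3 at 26.1, 27.5 and 18.6 CPM, although bone had 12.1, 13.6 and 11.5 of the latter. Emx2 was at 44.8, 38.0 and 39.0 CPM in skin, 0, 0.259 and 0.216 in thymus and 5.15, 4.40 and 4.83 in bone. These 5 homeobox genes did not lean on a single skin library.

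The T-box genes of the limbs split. Tbx5, of the forelimb and upper trunk, was at 19.8, 19.4 and 24.0 CPM in skin, 3.30, 8.53 and 9.51 in thymus and 2.25, 0.614 and 0.781 in bone. Tbx4, of the hindlimb, was at 0.0450, 0 and 0.0923 CPM in skin, 0.571, 1.03 and 0.931 in thymus and 16.8, 23.7 and 21.8 in bone. Pitx1, another hindlimb gene, was at 18.97, 18.6 and 23.8 CPM in bone, against at most 0.784 in skin and 0.0168 in thymus, so it was not called. The bones sampled were those of hindlimb and pelvis. Meox2, a mesoderm homeobox gene, was lower in skin than in each tissue, at 16.8, 17.6 and 11.0 CPM against 63.6, 50.5 and 75.4 in thymus and 91.9, 90.7 and 98.5 in bone.

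Hox genes are given by paralogue group, and differences between the groups were not tested. Beside 21.4% higher and 20.9% lower over all tested genes, groups 1 to 4 had 10 of 12 members tested, with 2 higher and 4 lower and a median difference of -0.63. Groups 5 to 8 had 11 of 11 tested, with 7 higher and 1 lower and a median of 2.99. Groups 9 to 13 had 13 of 16 tested, with 4 higher and none lower and a median of 1.77, or 1.60 with genes without reads set at their bound. Library size alone gave 1 and 5, 6 and 2, and 3 and 1. Groups 9 to 13 summed to 73.6, 66.5 and 92.5 CPM in skin, 1.18 to 2.55 in thymus and 120 to 138 in bone. By sum, bone was thus above every skin library, while the median difference is against the mean of thymus and bone.

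In the HoxC cluster, Hoxc4, Hoxc5, Hoxc6, Hoxc8, Hoxc9 and Hoxc10 were called higher, with and without skin 3. Hoxc8 (mm10 chr15:102990539-102994254) was at 32.8, 33.6 and 34.3 CPM in skin, 0.00839, 0 and 0.0196 in thymus and 2.68, 2.05 and 0.824 in bone. Hoxc6 was at 33.8, 32.7 and 36.1 CPM in skin, 0.864, 1.34 and 1.16 in thymus and 5.65, 7.38 and 4.50 in bone, a difference of 3.74 ± 0.19. Hoxc9 was at 22.5, 19.2 and 23.9 CPM in skin, 0, 0.0167 and 0 in thymus and 1.36, 3.86 and 2.495 in bone. Hoxc10 overlapped bone: it was at 30.5, 27.2 and 32.4 CPM in skin, 0, 0 and 0.0196 in thymus and 21.6, 28.0 and 26.0 in bone, and lost its call with library size alone.

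Some genes at either end of the clusters had another tissue above skin. Hoxa3, of the front end, was at 2.44, 1.47 and 2.51 CPM in skin and 16.6, 16.1 and 34.8 in thymus. Hoxa11, used in the limb, was at 0.124, 0.117 and 0.104 CPM in skin, 0 in every thymus library and 24.2, 18.2 and 26.4 in bone. Hoxa13 and Hoxd13 had 0 reads in skin and thymus, and bone had 653 and 526. Hoxb9 had 329 reads in skin and 0 in the other 6 libraries, at least 153-fold higher than thymus and at least 141-fold higher than bone. Hoxb9 passed the filter through skin, so a call of it is no support of its own. Hoxc13, known for hair differentiation, stood apart from its cluster, at 1.34, 2.10 and 12.2 CPM in skin, and was not called without skin 3.

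**Figure D3:**
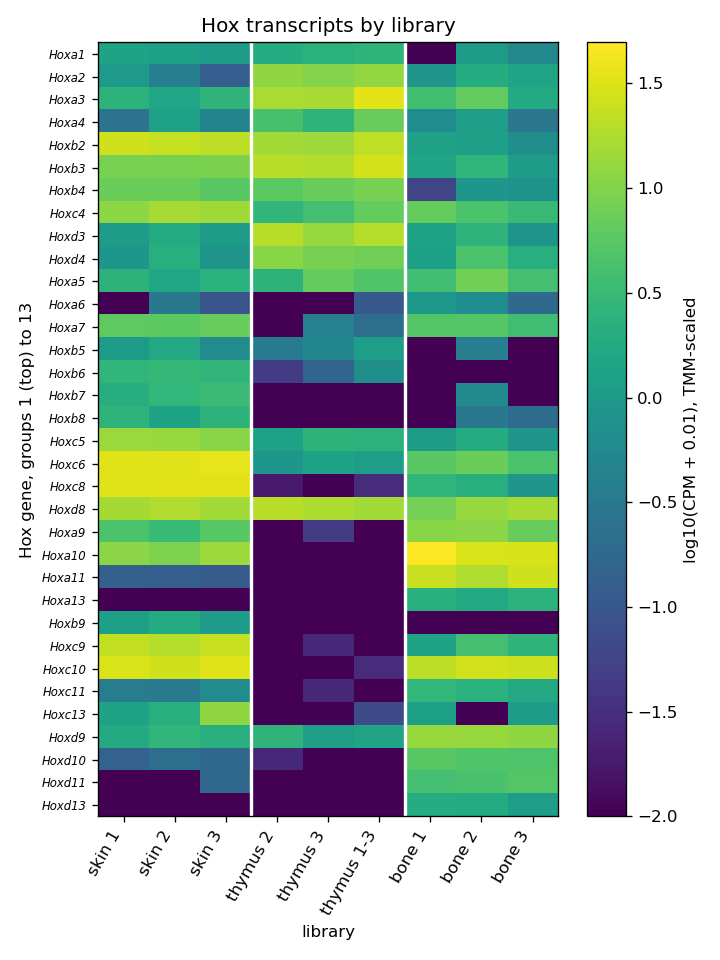
Heat map of log10(CPM + 0.01) of each tested Hox gene (rows, group 1 at the top to 13) in each of the 9 libraries (columns, 3 per tissue). Hoxc8 is bright in skin and dark in thymus, Hoxa11 is bright in bone alone, and Hoxa3 is brightest in thymus.

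Among the genes furthest above both tissues that did not lean on skin 3 were secreted and membrane proteins outside the lists. Cpz, a carboxypeptidase that binds Wnt proteins, was at 1235, 1572 and 1221 CPM in skin, 15.9, 29.0 and 59.0 in thymus and 21.4, 15.1 and 18.6 in bone, a difference of 5.73 ± 0.35 (edgeR adjusted p = 1.46e-06). Ptx3, a soluble pattern recognition protein, was at 765, 1052 and 1746 CPM in skin, 3.20, 5.76 and 3.95 in thymus and 41.8 to 80.3 in bone. Adam23 was at 249.6, 244 and 302 CPM in skin, 4.68, 8.11 and 7.71 in thymus and 5.54, 3.54 and 0.998 in bone. Neighbouring aldo-keto reductase genes of chromosome 13 stood out together. Akr1c18, which inactivates progesterone, was at 764, 669.7 and 757 CPM in skin, 11.5, 22.7 and 34.3 in thymus and 0.0582, 0.981 and 0.228 in bone. Akr1c14 was at 179, 111 and 243 CPM in skin and at most 10.6 elsewhere. Members of this family are close in sequence, so the reads of each are less certain than those of single-copy genes.

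Il31ra, a receptor chain for the itch cytokine IL-31, was at 35.6, 31.9 and 40.8 CPM in skin, 0, 0.0669 and 0.0392 in thymus and 0.806, 2.45 and 1.66 in bone. Nrcam, a neuronal adhesion molecule, was at 88.3, 93.7 and 96.5 CPM in skin, 3.14, 6.64 and 6.70 in thymus and 0.932, 1.31 and 0.890 in bone. Creb3l3, best known from liver, was at 79.4, 80.3 and 67.9 CPM in skin and at most 2.69 elsewhere. The GABA receptor subunit gene Gabrb2 was at 32.5, 18.8 and 21.5 CPM in skin and at most 1.52 elsewhere. In each of these genes the skin libraries agreed within a factor of 2 and no other library reached them.

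Signalling genes were called in both directions, beside 21.4% higher and 20.9% lower over all tested genes. Of 13 Wnt ligands that passed the filter, 5 were higher and none lower, and with library size alone 3 and 1. Wnt10b was at 38.3, 50.2 and 33.9 CPM in skin, 6.80, 14.4 and 8.93 in thymus and 10.4, 9.48 and 8.98 in bone, and Wnt11 differed by 1.08 ± 0.16. Of 17 tested Wnt antagonists and modulators, 6 were higher and 4 lower, and 5 and 5 with library size alone. Skin 3 was leaned on by 6 of the 17, and without it 4 were called higher. Sfrp4 was at 825, 1015 and 1146 CPM in skin, 23.7, 48.2 and 70.6 in thymus and 472, 554 and 329 in bone. Dkk2 was lower, with a log2 difference of -1.20 ± 0.19.

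In the BMP and TGF-beta family, 10 of 27 were higher and 9 lower, beside 21.4% and 20.9% of all tested genes. With library size alone the counts were 8 and 10. The higher side held the antagonist genes Chrd, Chrdl1 and Fst among others. Chrdl1, which binds BMPs, was at 512, 440.2 and 446 CPM in skin, 12.2, 16.7 and 21.8 in thymus and 56.6, 53.5 and 50.6 in bone, a difference of 3.95 ± 0.16 (edgeR adjusted p = 1.96e-08). Fst, follistatin, differed by 2.76 ± 0.22. The ligand gene Bmp7 was at 126, 145 and 85.6 CPM in skin, 10.6, 22.3 and 27.5 in thymus and 0.0194, 0.537 and 0.618 in bone. Ligands also stood on the lower side: Bmp5 was at 2.13, 4.10 and 3.76 CPM in skin, 11.0, 8.97 and 10.6 in thymus and 41.8, 45.1 and 40.3 in bone. Tgfb1 was at 8.37, 11.7 and 16.9 CPM in skin, 24.4, 27.0 and 39.8 in thymus and 78.4, 83.9 and 82.2 in bone. Grem1, an antagonist, was lower too, with 4 reads over the 3 skin libraries.

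Among 21 FGF and IGF genes, 7 were higher and 5 lower, beside 21.4% and 20.9% of all tested genes. With library size alone the counts were 6 and 7. Igfbp6, which prefers IGF-II, was at 1486, 1785 and 2107 CPM in skin, 108, 175 and 198 in thymus and 388, 346 and 301 in bone. Fgf18, a growth factor of the resting hair cycle, was at 32.8, 30.6 and 30.3 CPM in skin, 7.09, 8.89 and 9.70 in thymus and 8.44, 13.95 and 14.1 in bone. Fgf1 was lower, at 6.96, 10.4 and 6.33 CPM in skin and 151, 153 and 157 in thymus. Of 15 adipogenic regulators, 10 were higher and none lower, and with library size alone 5 and 2. Cebpd was at 291, 449.6 and 569 CPM in skin, 174, 181 and 96.6 in thymus and 81.4, 61.6 and 68.1 in bone, while Pparg, the master regulator of fat cells, was at 7.32, 9.22 and 6.18 CPM in skin and was not called without skin 3.

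Several inflammatory chemokines were higher in every skin library than elsewhere. Of 16 tested chemokines, 6 were higher and 1 lower, beside 21.4% and 20.9% of all tested genes. With library size alone the counts were 5 and 4. Ccl2, which draws monocytes, was at 604, 926 and 1233 CPM in skin, 31.4, 33.9 and 43.5 in thymus and 71.3, 30.8 and 112 in bone, a difference of 4.18 ± 0.35 (edgeR adjusted p = 1.14e-05). Ccl7 was at 336, 398 and 641 CPM in skin and at most 77.0 elsewhere, and Cxcl10 at 359.9, 378 and 572 against at most 45.3. Cx3cl1, fractalkine, was the lower one, at 0.540, 1.30 and 1.27 CPM in skin, 211, 180.1 and 172 in thymus and 26.2, 37.2 and 29.1 in bone.

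Genes known to respond to tissue handling were high in the same libraries. Of 22 immediate early and heat shock genes, all tested, 15 were higher and none lower, and with library size alone 11 and 1. Their summed level was 26499, 31627 and 33514 CPM in skin, 7097 to 9006 in thymus and 16124 to 18892 in bone. Dnajb1, a heat shock co-chaperone, was at 448, 835 and 672 CPM in skin, 59.3, 50.4 and 38.6 in thymus and 123, 104 and 136 in bone. Hspa1a was at 627, 744 and 857 CPM in skin, 154, 49.7 and 165 in thymus and 43.5, 41.1 and 59.3 in bone, and its near-identical copy Hspa1b had like values, so reads may be split between them. Fos, in contrast, was at 2284, 2363 and 2960 CPM in skin and 3558, 3137 and 3205 in bone, and was not called. The part of tissue handling in the chemokine and stress genes was not tested.

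Of 20 matrix proteases and inhibitors, 12 were higher and 5 lower, and with library size alone 9 and 5. Mmp27 was at 28.7, 35.5 and 44.3 CPM in skin and at most 3.15 elsewhere. Adamts1, which cleaves versican, was at 1104, 1021 and 1134 CPM in skin, 141, 156 and 97.8 in thymus and 502, 452 and 448 in bone. Timp3, a matrix-bound inhibitor, differed by 1.43 ± 0.12. Mmp9, a gelatinase, was lower on the log2 scale (-8.36 ± 0.28, edgeR adjusted p = 8.74e-09), at 0.956, 0.410 and 0.657 CPM in skin, 601, 461 and 585 in thymus and 87.3, 99.5 and 90.9 in bone.

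Genes of hair follicle epithelium were found in every skin library, at uneven levels. Among the 782 genes at least 2-fold higher than each tissue, 96 (12.3%) leaned on skin 3, meaning that skin 3 had at least 2 times the CPM of each other skin library, while 1 leaned on skin 1 and 3 on skin 2. Over all tested genes the shares leaning on skin 1, 2 and 3 were 2.55%, 2.43% and 7.48%. When skin 3 was left out, 642 of the 782 still met the rule, among them 44 of the 96. Leaving out skin 1 kept 696 and leaving out skin 2 kept 664. The names that follow are therefore given in every library.

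The keratins of the inner root sheath, which moulds the growing hair, were in all 3 skin libraries. Krt71 was at 76.3, 70.5 and 240.5 CPM in skin, with 32445 reads there against 3 in thymus and 2 in bone. The ratio was 15109 to thymus (95% counting interval 5169 to 73267) and 20784 to bone (5753 to 171630). Krt25, its type I partner, was at 56.3, 48.6 and 174 CPM in skin, 0.159, 0.276 and 1.19 in thymus and 0.505, 0.452 and 0.456 in bone. Krt27, Krt28 and Krt73 were likewise highest in skin 3, at 25.5, 28.7 and 71.3, at 11.0, 10.4 and 47.3, and at 15.5, 19.2 and 51.7 CPM. Tchh, trichohyalin, was at 50.3, 30.1 and 135 CPM in skin. Skin 1 and skin 2 were thus near each other, and skin 3 was 3.28 times their mean for Krt71.

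Keratins of the hair shaft were also highest in skin 3. Krt35 was at 4.52, 9.86 and 49.5 CPM in skin, Krt31 at 1.36, 2.95 and 38.3, and Krt33a at 0.573, 4.75 and 43.6. Thymus and bone together had 0 reads of Krt31 and Krt33a, and 4 of Krt35. Krt31 was at least 1697-fold higher than thymus and at least 1557-fold higher than bone over the 3 skin libraries, and skin 3 held most of that. The summed level of the shaft keratins was 27.1, 56.9 and 305 CPM in skin 1, 2 and 3, and that of the inner root sheath list was 254, 226 and 774 CPM. Without skin 3, 13 shaft and 10 inner root sheath genes were called higher, against 13 and 11 with it, and limma on log2(RPKM + 1) called 3 and 7. The 2-fold rule was met by 8 and 9 without skin 3, against 12 and 10 with it. All 13 tested shaft genes leaned on skin 3, as did 9 of 12 tested inner root sheath genes. Members of both lists passed the filter through skin, so their calls are no support of their own.

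These sheath keratins and Krt31 lie in the keratin clusters of chromosomes 15 and 11, and the 100 bases before their start sites are shown because these 6 carry the same TATA motif, which the 3 dermal genes beside them lack. Sequences are RefSeq promoters of GRCm38.p6, read 5′ to 3′ on the strand of the gene, with each match to TATAAA in capitals. Krt71 (chr15:101743098-101743197, minus strand) has it 40 bases before the start, Krt73 (chr15:101802361-101802460, minus) and Krt25 (chr11:99322952-99323051, minus) 30 bases before, and Krt31 (chr11:100050552-100050651, minus) 29 bases before. Krt28 (chr11:99374904-99375003, minus) has it 30 bases before, and Krt27 (chr11:99351119-99351218, minus) 15 bases before the annotated start. Twist2 (chr1:91801361-91801460, plus), Col1a2 (chr6:4505518-4505617, plus) and Zic1 (chr9:91365769-91365868, minus) have none.
Krt71: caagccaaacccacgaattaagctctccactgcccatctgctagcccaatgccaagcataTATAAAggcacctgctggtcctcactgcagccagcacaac
Krt73: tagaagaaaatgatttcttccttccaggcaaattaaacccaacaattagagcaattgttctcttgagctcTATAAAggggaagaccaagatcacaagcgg
Krt25: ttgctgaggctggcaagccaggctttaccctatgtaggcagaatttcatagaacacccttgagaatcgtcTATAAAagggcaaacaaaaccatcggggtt
Krt28: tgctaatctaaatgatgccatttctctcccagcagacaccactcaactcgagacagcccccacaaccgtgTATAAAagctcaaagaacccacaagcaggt
Krt27: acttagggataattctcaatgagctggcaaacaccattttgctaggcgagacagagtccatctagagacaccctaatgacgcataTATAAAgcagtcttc
Krt31: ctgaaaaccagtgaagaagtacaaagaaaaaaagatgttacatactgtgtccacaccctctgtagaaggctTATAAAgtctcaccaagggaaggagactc
Twist2: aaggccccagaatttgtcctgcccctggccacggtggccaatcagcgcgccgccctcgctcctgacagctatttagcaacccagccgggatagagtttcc
Col1a2: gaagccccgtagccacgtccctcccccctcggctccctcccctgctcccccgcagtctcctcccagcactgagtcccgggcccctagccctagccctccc
Zic1: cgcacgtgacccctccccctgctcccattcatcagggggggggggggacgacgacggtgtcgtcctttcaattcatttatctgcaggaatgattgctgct

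The motif was searched on both strands of these 100 bases in every RefSeq promoter of the table. It stood in 1827 of 32851 (5.56%), and in 11 of the 16 follicle keratins with an entry, of 24 listed (68.8%). The share of all promoters counts promoters, while list shares count genes with the motif in any of their promoters. None of the 9 matched dermal fibroblast genes, 8 fibrillar collagens, 9 fascia genes or 16 collagen modification genes had it. For CCAAT, searched the same way, the shares were 18.9% of all promoters and 18.8% of the follicle keratins. These are letter matches in related genes of 2 clusters and say nothing of binding.

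**Figure D4:**
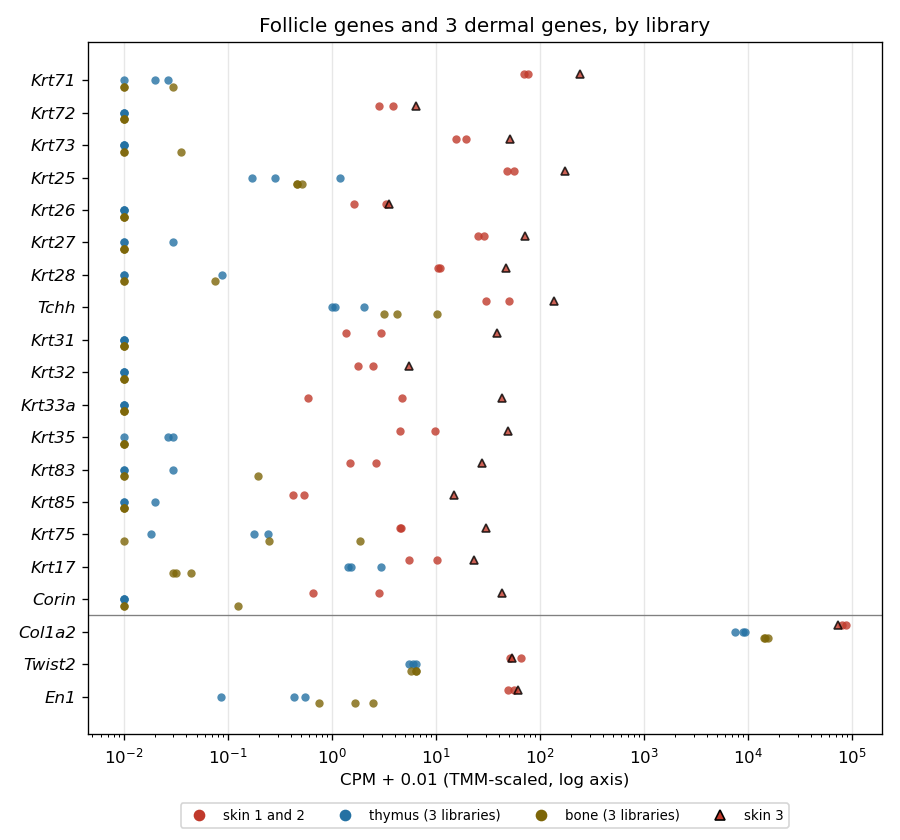
CPM + 0.01 on a log axis of follicle genes (above the line) and of Col1a2, Twist2 and En1 (below it), 1 point per library, with skin 3 as a triangle. Skin 3 lies near the other skin libraries for the genes below the line and above them for Krt71, Krt31 and Krt33a.

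Signals of the hair matrix leaned on skin 3 in 9 of 10 tested genes. Msx2 was at 1.87, 2.87 and 17.5 CPM in skin, and Shh, with 106 reads in all, at 0.135, 0.234 and 0.900. Of the 6 matrix genes called higher, 2 were called without skin 3. Of 52 keratin-associated protein genes counted, which encode the sulfur-rich filler of the hair shaft, 5 passed the filter, all through skin. Their summed level was 1.69, 13.7 and 140 CPM in skin 1, 2 and 3 and at most 0.0587 in any other library. Krtap11-1 was at 0.326, 2.08 and 34.1 CPM. The outer root sheath and follicle stem cell list was less uneven by sum, at 228, 277 and 295 CPM in skin 1, 2 and 3. It summed to 99.8 to 205 CPM in thymus and 107 to 112 in bone. Of its 10 tested genes, 6 were higher and 1 lower, and with library size alone 5 and 1. Of these 10 genes, 4 leaned on skin 3, and without skin 3, 4 were called higher.

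Keratinocyte genes were detected as well. Of 18 tested, 12 were higher and 1 lower, and with library size alone 11 and 1. Skin 3 was leaned on by 10 of the 18. Without it 11 were called higher, and 7 met the 2-fold rule against 9 with it. Krt5, of the basal layer, was at 6.48, 14.1 and 22.6 CPM in skin, 1.85, 2.13 and 3.36 in thymus and 0.107, 0.0682 and 0.0651 in bone. Krt14 was at 3.33, 5.99 and 9.53 CPM, and Krt10, of the layers above, at 17.4, 17.9 and 18.9. The list summed to 114, 123 and 326 CPM in skin, but to 209 to 293 CPM in bone, where Itga6 alone had 214, 151 and 184, so the sum does not mark the cell type there. Sprr1a, which is in no list, a cornified envelope gene, was at 15.2, 16.3 and 43.1 CPM in skin. Among pigment cell genes, Dct was at 1.12, 1.57 and 4.69 CPM in skin and had 0 reads elsewhere. It passed the filter through skin, so its call is no support of its own. Of 9 tested melanocyte genes, 3 were higher and none lower, beside 21.4% and 20.9% of all tested genes. With library size alone the counts were 3 and 1, and 6 of the 9 leaned on skin 3. The list summed to 41.9, 43.6 and 70.3 CPM in skin, 17.8 to 20.7 in thymus and 59.6 to 66.7 in bone.

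Skin 3 also differed from skin 1 and skin 2 in genes of other programmes. Interferon response genes leaned on skin 3 in 14 of 20 cases and summed to 1408, 1641 and 3538 CPM in skin. With skin 3, 12 were higher and 1 lower, against 5 and 3 with library size alone. Without skin 3, 3 were called higher. Irf7 was at 32.9, 42.3 and 264 CPM in skin, 47.1, 57.4 and 41.8 in thymus and 20.2, 18.3 and 12.5 in bone, so skin 1 and skin 2 lay within the range of the other tissues. Irf1 did not follow it, at 472, 569 and 711 CPM in skin, 93.6, 111 and 75.8 in thymus and 223, 196 and 201 in bone, and was higher with and without skin 3. Ifi205, an interferon-inducible gene, was at 392.3, 494 and 1195 CPM in skin and at most 43.4 elsewhere.

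Cell cycle genes were lowest in skin 3. They summed to 618, 438 and 202 CPM in skin, 310 to 403 in thymus and 660 to 859 in bone. With all libraries none of 20 was higher and 1 was lower, and with library size alone none and 7. Without skin 3, 7 were called higher and 1 lower. Mki67, a protein of dividing cells, was at 72.1, 33.6 and 12.6 CPM in skin, 44.1, 67.4 and 73.2 in thymus and 159.9, 184 and 204 in bone. The calls of this list therefore changed with 1 library.

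Skeletal muscle genes were highest in skin 1, at summed levels of 59.0, 34.5 and 21.9 CPM in skin, 6.67 to 9.61 in thymus and 4.57 to 5.20 in bone. Acta1 was at 17.9, 10.1 and 5.82 CPM in skin. The satellite cell gene Pax7 had 0 reads in the 9 libraries. The dermal and matrix lists were not all alike between skin libraries. The median log2 ratio of skin 3 to the mean of skin 1 and skin 2 was 0.19 for the dermal fibroblast list, 0.20 for fascia, -0.19 for collagen modification and 0.00 for elastic fibre. For the papillary list the median was 0.13, with 2 of 12 genes leaning on skin 3 and a highest log2 ratio of 4.47. For the dermal papilla list it was 0.44, with 6 of 21 leaning and a highest log2 ratio of 4.64. The median log2 ratio was 1.64 for the inner root sheath, 2.78 for shaft keratins, 1.74 for interferon response and -1.62 for cell cycle. Over all tested genes with a ratio the median was 0.03. The part of these differences in the calls of other genes was not tested.

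**Figure D5:**
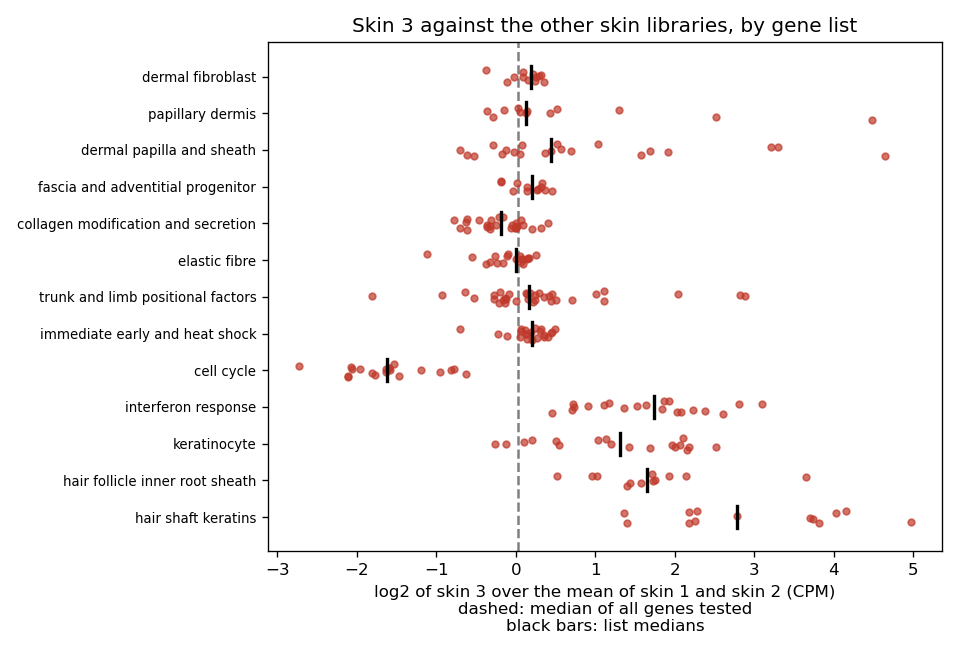
Log2 ratio of CPM in skin 3 over the mean of skin 1 and skin 2, 1 point per gene, by list, with list medians as bars and the median of all tested genes (0.03) as a dashed line. The bar of the dermal fibroblast list is at 0.19, that of cell cycle at -1.62 and that of shaft keratins at 2.78.

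The genes furthest below both tissues included genes of lymphocytes. Rag1, of lymphocyte precursors, was at 0.146, 0 and 0 CPM in skin, 19.1, 58.2 and 29.3 in thymus and 21.0, 32.2 and 27.2 in bone. Spib, a lymphoid and myeloid factor, was at 0.214, 0.205 and 0.300 CPM in skin, 36.8, 30.9 and 35.4 in thymus and 34.5, 41.2 and 38.4 in bone. Of 9 T cell genes, 8 were lower, and they summed to 0.791 to 1.21 CPM in skin, 59.4 to 175 in thymus and 31.5 to 42.1 in bone. The 7 neutrophil genes counted were all lower, and summed to 0.557 to 1.19 CPM in skin, 8.15 to 9.29 in thymus and 2677 to 3735 in bone. Macrophage and myeloid genes did not follow: of 14, all tested, 1 was higher and 1 lower, and with library size alone none and 2. The part of leukocyte RNA in the lower genes was not tested.

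Other lower genes are not leukocyte markers in the lists. Tspan15 was at 0.641, 0.923 and 0.185 CPM in skin, 89.7, 81.8 and 64.4 in thymus and 153, 102 and 90.9 in bone. Pappa, a protease that cleaves IGF binding proteins, was at 0.483, 0.689 and 0.346 CPM in skin, 33.4, 41.5 and 39.0 in thymus and 25.9, 21.1 and 29.0 in bone. Dio2, which activates thyroid hormone, was at 3.95, 3.60 and 3.46 CPM in skin, 194, 152 and 132 in thymus and 91.7, 146 and 106 in bone. Slc7a2, an arginine transporter, and Ano1, a chloride channel, were lower, with log2 differences of -5.46 ± 0.28 and -4.82 ± 0.37. For each of these 5 genes every skin library was below every other library.

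Genes of mural cells were mostly lower: of 13 pericyte and smooth muscle genes, all tested, 8 were lower and 1 higher, and with library size alone 8 and none, with a median difference of -2.26. Notch3 was at 7.98, 13.2 and 10.4 CPM in skin, 308, 217 and 235 in thymus and 62.2, 72.5 and 40.6 in bone, and Rgs5 at 1.05, 0.528 and 0.450 CPM, 18.5, 17.3 and 10.1 in thymus and 64.1, 73.9 and 78.4 in bone. Acta2 was not called, at 14.9, 28.4 and 81.6 CPM in skin. Runx2, the osteoblast factor, was lower than in each tissue, at 2.15, 3.08 and 3.53 CPM in skin, 15.2, 13.4 and 19.7 in thymus and 37.8, 66.0 and 35.9 in bone.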

How the data were processed

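RNA sequencing of 9 sorted cell samples gave 1 table of read counts and 1 of RPKM per library. The read counts per gene were deposited by the authors, and CASAVA 1.8.2, HTSeq 0.5.4 and the build mm10 are listed, without roles, per the submitters' processing notes. The RPKM values were also deposited by the authors, divide by gene length, and were used for levels between genes and for alternatives. A signal column that the authors deposited beside the RPKM values was not analysed. The 5 summary lines of each count table were left out. Counts were filtered by filterByExpr, scaled by TMM and tested in edgeR 4.0.16 (R 4.3.3) over all 9 libraries, with skin contrasted with the mean of thymus and bone and with each alone. The SE is the log2 difference divided by the square root of F. On simulated data for this comparison over 15341 genes, 76% of 2-fold and 92% of 4-fold changes were recovered. Of 15141 unchanged genes, 11 were called. The changes were put only into genes above a minimum mean CPM and moved skin alike against both tissues. These rates therefore do not cover scarcer genes or genes that differ between thymus and bone. A group with 0 reads was set at 3 reads over its 3 libraries. Intervals and floors cover counting error only. Alternatives used DESeq2 1.42.0, limma 3.58.1 on log2(RPKM + 1) and log2(RPKM + 0.1), other scalings, other filters, a replicate block and each library left out.

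The members and lists were chosen with earlier results of these data known. Named genes were the 14 furthest above both tissues without leaning on skin 3 and the 8 leaning on it (mean of 20 CPM or more in skin), the 10 furthest below, the 12 with the highest RPKM in skin, up to 4 members per list with the smallest p, and the follicle, dermal and positional lists. Genes named outside this rule were chosen after their values were seen.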

Additional observations from a re-analysis of the deposited data

How the results depend on the processing

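With library size as the only scaling, 1155 genes were higher and 7553 lower, 353 at least 2-fold higher and 2922 at least 2-fold lower than in each tissue. All 353 were among the 782, and none of the 782 turned sign. With limma on log2(RPKM + 1) after a filter the counts were 1135 higher, 6677 lower and 294 at least 2-fold higher. With log2(RPKM + 0.1) they were 1124, 6646, 334 and, at least 2-fold lower, 2181. Without the filter log2(RPKM + 1) gave 1230, 6397 and 287. In each RPKM fit 31 of the 2-fold higher genes leaned on skin 3, against 96 in the main counts and 44 when the calls were made without skin 3. Leaving out each library in turn gave 2692 to 3446 higher, 2547 to 3235 lower, 684 to 820 at least 2-fold higher and 1003 to 1248 at least 2-fold lower, of which the higher ones held 44 to 112 that leaned on skin 3. Other scalings, count filters and DESeq2 kept these 4 counts within 1.5 times of the main ones. A replicate block on the title numbers gave 3149 higher, 2952 lower, 782 at least 2-fold higher and 1041 at least 2-fold lower. Deviations from the group means correlated with r from -0.08 to 0.09 between same-numbered libraries and from -0.12 to 0.07 between differently numbered ones. With so few libraries per group, these values cannot decide whether the numbers pair the samples, and no label says so. Of 173 genes followed by name, 149 had the same call in every alternative that tested them. None of the 155 that were called higher or lower reversed. Some alternatives did not test all of them: the filtered RPKM fits covered 158 of the 173 and the filter at 1 CPM covered 166.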

Other observations

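These genes were chosen after their values were seen. Esr1, an estrogen receptor gene, was higher in skin, at 239, 189.6 and 154 CPM (3.01 ± 0.15, edgeR adjusted p = 7.81e-08). The imprinted gene H19 was at 2972, 2943 and 623 CPM in skin, with skin 3 the lowest (2.40 ± 0.48, edgeR adjusted p = 0.00246). Its neighbour Igf2 was at 498, 727 and 125 CPM and was not called. The nuclear RNA Malat1 was lower in skin, at 100.4, 64.8 and 50.9 CPM (-2.91 ± 0.29), as was Neat1 (-3.26 ± 0.31). Reads outside genes were also fewest in skin, and their part in these 2 differences was not tested.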
